A study of Mus musculus with 6 samples.

Results

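The p53 target genes described here are a list of 37 genes, made of p53 itself and genes known to be under its control in cell-cycle arrest, apoptosis and DNA repair. They were picked by name with earlier results of these data known, so counts over them are descriptions. A probe set is a group of short array probes for 1 transcript. Of the list, 33 genes were among the 18193 mouse genes with a probe set annotated with a single gene symbol. All 33 were bright enough to be tested. Trp53, Bax, Gdf15 and Tap63 were not analysed here. A gene with several probe sets is given at its brightest one by mean signal over the 6 arrays, unless another is named. In all there were 64 probe sets for these genes, 15 genes had 1 and 18 had several. By role, 8 of the measured genes feed back on p53, 8 act in arrest, 11 in apoptosis and 5 in DNA repair, and Cd80 stands alone.

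p53 is a transcription factor that the ubiquitin ligase Mdm2 keeps at a low level, and that is stabilised when DNA is damaged or its replication is disturbed. It then binds pairs of short half-sites in or near its target genes, whose products halt the cell cycle, repair DNA or start apoptosis, and some of which restrain p53 in turn. The drug used, 5-aza-2'-deoxycytidine, is a cytidine analogue that is built into replicating DNA, traps DNA methyltransferases there and lowers DNA methylation as cells divide.

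The study measured total RNA of cultured mouse dermal fibroblasts in 3 groups of 2 arrays. GFP-positive and GFP-negative cells were both exposed to 4 μM 5-aza-2'-deoxycytidine for 48 hours, kept in normal medium for 24 hours and then sorted by whether they had switched on a silent GFP transgene. Control cells went through the same times without the drug and were not sorted again, so the drug and the further sort cannot be told apart. All groups were derived from the dermis of newborn mice (0 to 2 days old, labelled B6), were at passage 4, and were heterozygous for an X-linked GFP transgene under a chicken β-actin promoter with a CMV enhancer, inherited from males of a 129/ICR background crossed with BL6 females. All had first been sorted for cells that did not express GFP, in which per the labels the transgene lay on the inactive X. Per the labels 5 samples were female, and control replicate 2 came from a mix of sexes. In that sample a heterozygous transgene on an inactive X can describe only the female cells. The labels call the replicates biological without naming separate cultures or animals, so p-values measure only the spread between these samples.

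The values are signal intensities on a scale on which each array's trimmed mean is 500. As deposited, 4 arrays had that mean, and GFP-positive replicate 2 and GFP-negative replicate 2 had 50.5 and 62.0 and were multiplied by 9.90 and 8.06. After scaling, the arrays numbered 1 still had a higher lower quartile (38.7 to 42.6) than the arrays numbered 2 (19.2 to 22.6), in all 3 groups. Each number held 1 array of every group, and deviations from the group means went together within a number (r between 0.506 and 0.556 over probe sets). Differences were therefore also computed within each number, and with the number as a block in the model. All 12 dermal fibroblast markers were above the brightness limit, and their summed signal was lower on the 4 treated arrays (169001 to 182981) than on the control arrays (222779 and 231185), although Fn1 and Vim had log2 differences of 0.13 and 0.18 in GFP-positive against control cells. The summed signal of 5 skeletal muscle markers, nearly all of it Acta1, was 12924 to 16653 on treated arrays and 4284 and 9463 on control arrays, and that of 4 adipocyte markers was 1518 to 2183 on treated arrays and 3686 and 2674 on control arrays. The sum of 6 dim endothelial markers (4 above the brightness limit) was 281.0 to 526.5 on treated and 539.9 and 614.8 on control arrays. The part of these shifts in the results was not tested.

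Promoters are printed here for 6 genes that changed in the fit with this block, chosen because a window of theirs held a p53 half-site. Of the other genes that changed in that fit, Cd80 had no half-site in its window, and Pmaip1 and Perp had no promoter entry. Each window runs from 250 bases before to 50 bases after the annotated start, 5′ to 3′ on the gene's strand, from RefSeq on build GRCm38.p6. Capitals mark each match to the p53 half-site, a pattern of 10 letters that reads the same on both strands. The Mdm2 window is chr10:117710709-117711008 (minus strand), Ccng1 chr11:40755237-40755536 (minus), Cdkn1a chr17:29090729-29091028 (plus), Gtse1 chr15:85859696-85859995 (plus), Ckap2 chr8:22185770-22186069 (minus) and Gadd45a chr6:67037358-67037657 (minus).
Mdm2: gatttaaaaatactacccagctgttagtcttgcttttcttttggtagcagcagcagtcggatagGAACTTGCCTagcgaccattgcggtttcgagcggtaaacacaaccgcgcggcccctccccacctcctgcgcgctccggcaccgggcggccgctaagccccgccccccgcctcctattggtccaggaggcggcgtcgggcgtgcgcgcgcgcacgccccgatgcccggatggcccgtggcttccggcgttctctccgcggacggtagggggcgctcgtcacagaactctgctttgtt
Ccng1: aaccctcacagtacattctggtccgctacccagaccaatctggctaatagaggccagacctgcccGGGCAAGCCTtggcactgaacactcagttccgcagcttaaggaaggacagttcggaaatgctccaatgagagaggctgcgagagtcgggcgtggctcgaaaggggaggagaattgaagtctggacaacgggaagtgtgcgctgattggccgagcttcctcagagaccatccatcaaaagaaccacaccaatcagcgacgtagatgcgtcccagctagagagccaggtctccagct
Cdkn1a: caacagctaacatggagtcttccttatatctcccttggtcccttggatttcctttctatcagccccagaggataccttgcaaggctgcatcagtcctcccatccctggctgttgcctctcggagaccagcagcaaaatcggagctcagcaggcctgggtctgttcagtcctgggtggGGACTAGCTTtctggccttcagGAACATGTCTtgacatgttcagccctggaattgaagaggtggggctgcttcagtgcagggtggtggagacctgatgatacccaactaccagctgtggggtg
Gtse1: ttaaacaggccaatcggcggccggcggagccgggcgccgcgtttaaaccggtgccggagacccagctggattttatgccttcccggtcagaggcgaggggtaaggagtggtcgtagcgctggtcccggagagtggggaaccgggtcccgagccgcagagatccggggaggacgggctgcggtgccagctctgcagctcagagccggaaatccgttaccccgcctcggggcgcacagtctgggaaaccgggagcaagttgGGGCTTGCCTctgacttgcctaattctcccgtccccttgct
Ckap2: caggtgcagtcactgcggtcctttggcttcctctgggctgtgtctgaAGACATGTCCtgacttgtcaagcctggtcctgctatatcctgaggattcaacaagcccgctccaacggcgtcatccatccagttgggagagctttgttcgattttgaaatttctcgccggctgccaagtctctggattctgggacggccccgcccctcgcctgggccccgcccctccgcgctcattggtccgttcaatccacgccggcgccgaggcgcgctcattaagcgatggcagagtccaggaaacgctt
Gadd45a: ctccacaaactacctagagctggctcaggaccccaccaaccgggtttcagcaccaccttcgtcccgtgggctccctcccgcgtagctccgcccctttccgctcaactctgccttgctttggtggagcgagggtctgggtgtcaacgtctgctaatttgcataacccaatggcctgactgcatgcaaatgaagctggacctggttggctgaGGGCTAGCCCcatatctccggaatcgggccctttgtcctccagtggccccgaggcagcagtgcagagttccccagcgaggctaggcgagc
The Cdkn1a window held a pair of half-sites at positions -73 and -51 from the start. The other windows shown held 1 half-site each, at position -186 in Mdm2, -185 in Ccng1, 10 in Gtse1, -203 in Ckap2 and -40 in Gadd45a. Cdkn1a and Gtse1 each have another annotated start, whose windows held no half-site and are not shown.

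RefSeq windows were found for 25 of the 33 measured genes, 33 windows in all because some genes have several starts. A half-site was present in 13 of these windows (39.4%), against 8.36% of all 32851 windows and 6.97% of the 13608 windows of tested genes. By gene, 12 members had a half-site in a window and 13 had none, Cd80, Mdm4 and Btg2 among them, which says only that the letters are not in those windows. A pair of half-sites at most 13 bases apart was found in 1 member window, the Cdkn1a window shown, and in 0.0731% of all windows. The windows of measured members held a median of 22 CpG dinucleotides, the sites that DNA methyltransferases methylate, with a range of 2 (the upstream Cdkn1a window) to 46. The median was 7 over all windows and 19 over windows of tested genes. A match in a window is a description of its letters and not evidence of binding.

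Against control cells, p53 target genes were mostly higher in drug-treated cells, led by Cd80, Pmaip1 and Mdm2. In limma, a linear model for arrays, 0 of 33 passed at a Benjamini-Hochberg adjusted p under 0.05 in GFP-positive against control cells or in GFP-negative against control cells. That fit called 0.122% and 0.0296% of all 27022 probe sets tested in these comparisons, while 9 and 6 members had an unadjusted p under 0.05 (7.04% and 5.07% of probe sets did). With the replicate number as a block, 8 members rose and 0 fell in GFP-positive cells, against 6.21% of probe sets called, 3.15% higher and 3.06% lower. In GFP-negative cells 5 members rose and 1 fell with the block, against 3.57% of probe sets called, 1.9% higher and 1.68% lower. Members are counted at the brightest probe set of a gene. Counted so over 13223 genes, the block fit called 3.97% higher and 3.8% lower in GFP-positive cells. In GFP-negative cells it called 2.43% higher and 2.1% lower. The calls were lost without the mean-variance trend of limma's variance estimate: with the block and no trend 0 members passed, and 8 and 0 probe sets did (0.0296% and 0.0%). Both comparisons share the control arrays. In bulk RNA a difference in the share of cells that express a gene and a difference in RNA per cell cannot be told apart.

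**Figure D1:**
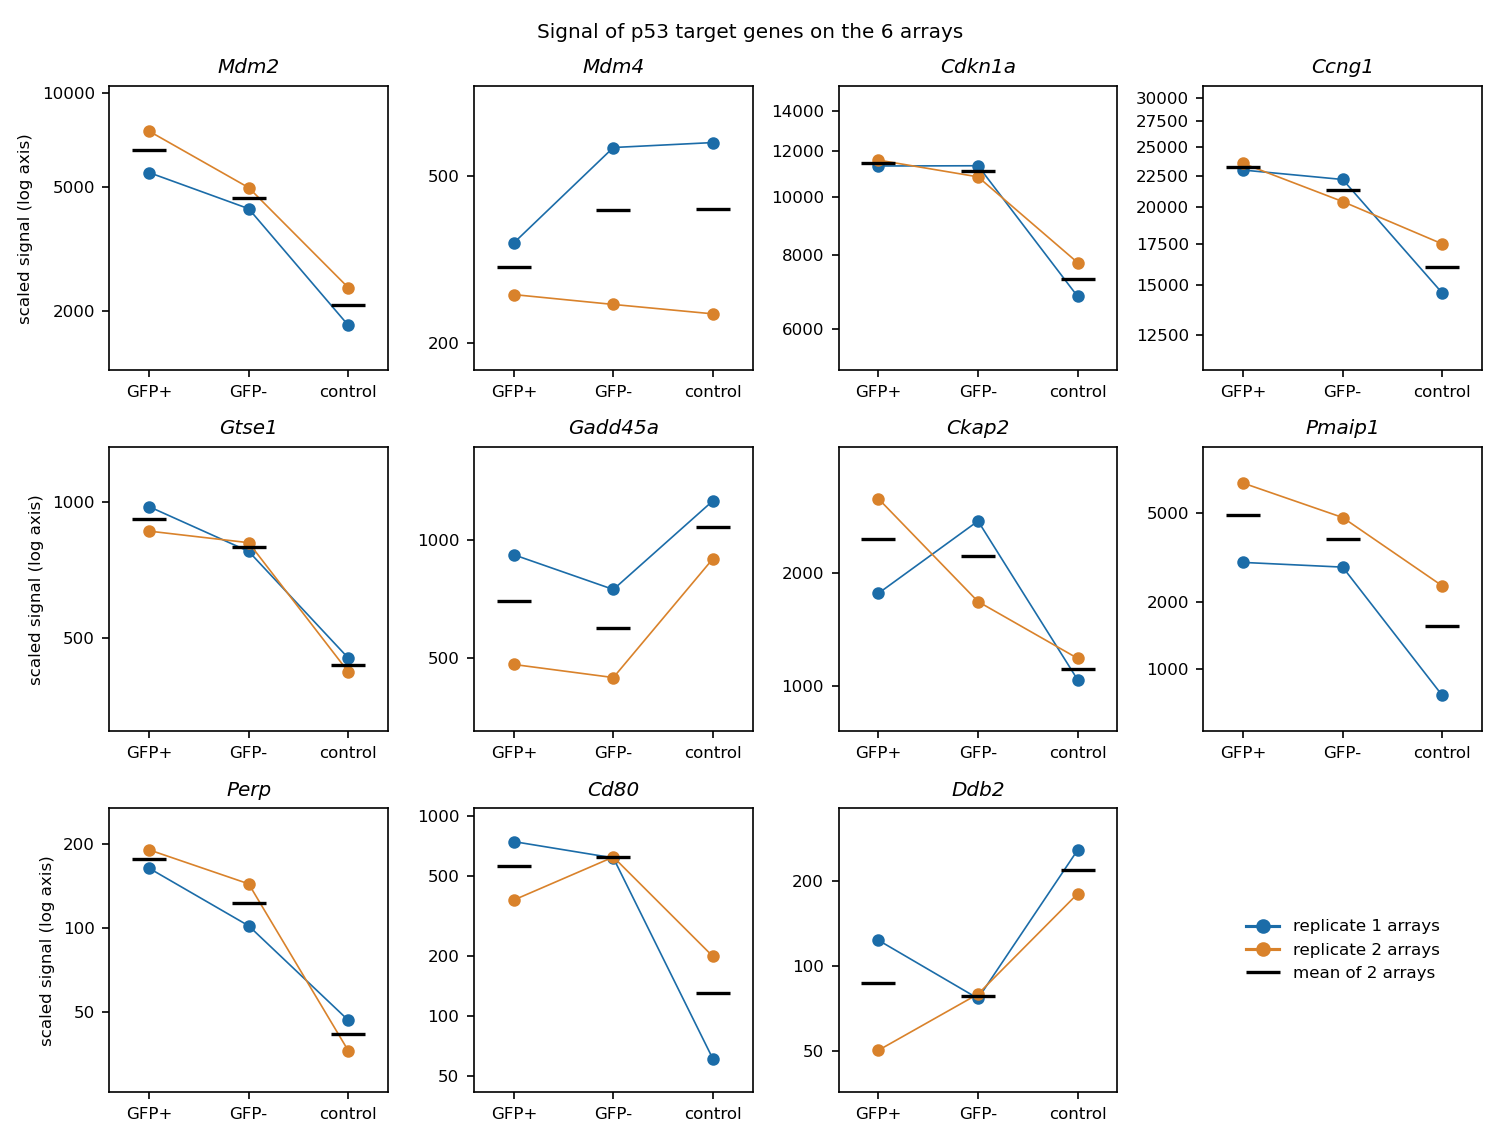
Signal of 11 p53 target genes on the 6 arrays, with 1 panel per gene. The vertical axis is scaled signal (log axis), the groups run GFP-positive, GFP-negative and control, lines join arrays of 1 replicate number, and black bars are means of 2 arrays. In Mdm2, Ccng1, Cdkn1a, Gtse1, Ckap2, Pmaip1, Perp and Cd80 all 4 treated arrays lie above both control arrays.

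Mdm2 was the feedback regulator with the highest rise. It had signals of 5543 and 7526 in GFP-positive cells, 4245 and 4960 in GFP-negative cells, and 1795 and 2371 in control cells. None of the 3 groups overlapped, and GFP-positive cells were highest within both replicate numbers. The log2 difference of GFP-positive against control cells was 1.63 ± 0.25 (SE), a 3.1-fold change, with 1.61 within replicate 1 and 1.65 within replicate 2. Every ± in the text is the SE of the fit without the block, also beside an adjusted p with the block. With the block the SE of this Mdm2 difference was 0.13. The limma adjusted p of Mdm2 was 0.0813, and 4.83e-05 with the block. For GFP-negative against control cells the log2 difference was 1.14 ± 0.25, with 1.23 and 1.05 within the numbers and limma adjusted p-values of 0.357 and, with the block, 0.000683. A further Mdm2 probe set gave log2 differences of 1.52 and 1.35 in these comparisons, and one below the brightness limit gave 0.48 and 0.46.

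Ccng1 encodes cyclin G1, which brings a phosphatase to Mdm2. Its signals were 22967 and 23533 in GFP-positive cells, 22181 and 20443 in GFP-negative cells, and 14584 and 17484 in control cells, so the treated arrays did not overlap the control arrays. The log2 difference of GFP-positive against control cells was 0.54 ± 0.21, with 0.65 and 0.43 within the numbers and a limma adjusted p of 0.0292 with the block (0.617 without). In GFP-negative cells it was 0.41 ± 0.21, with an adjusted p of 0.115 with the block. The other 2 Ccng1 probe sets gave 0.70 and 0.66 in GFP-positive cells, with block adjusted p-values of 0.00742 and 0.00724 in limma.

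Mdm4, the relative of Mdm2 that binds p53 and blocks its transcriptional activity, showed no such difference. Its signals were 346.5 and 261.2 in GFP-positive cells, 583.6 and 247.5 in GFP-negative cells, and 599.6 and 235.1 in control cells. The arrays numbered 1 were higher than those numbered 2 in each group, and all groups overlapped. The log2 difference was -0.30 ± 0.52 in GFP-positive and 0.01 ± 0.52 in GFP-negative against control cells. Its 4 probe sets disagreed in sign, ranging from -0.35 to 0.21 in GFP-positive cells.

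The other feedback regulators passed no test. Ppm1d encodes a phosphatase that switches off p53 and its upstream kinases, and its log2 differences were 0.66 ± 0.30 in GFP-positive and 0.39 ± 0.30 in GFP-negative cells, with no overlap with control. A second Ppm1d probe set gave 0.16 and 0.23. Trp53inp1, a nuclear protein that promotes p53 phosphorylation, had 0.50 ± 0.28 in GFP-positive cells with no overlap, and 0.10 ± 0.28 in GFP-negative cells with overlap. At the other Trp53inp1 probe set the differences were 0.05 and -0.08, so the rise in GFP-positive cells did not hold there. Plk2 and Plk3 are stress-responsive kinases, and Pml is the scaffold of the nuclear bodies in which p53 is modified. Plk2, Plk3 and Pml overlapped between treated and control cells and had log2 differences of 0.25, -0.39 and 0.23 in GFP-positive and 0.29, 0.37 and 0.16 in GFP-negative cells. Another Pml probe set above the brightness limit had the opposite sign, with -0.13 and -0.26. Plk3 was also the member with the lowest difference of GFP-positive against GFP-negative cells, -0.75 ± 0.44, with a limma adjusted p of 0.836 with the block.

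Among the arrest genes, 3 rose in GFP-positive cells in the fit with the block (Cdkn1a, Gtse1 and Ckap2). Cdkn1a encodes p21, the inhibitor of cyclin-dependent kinases through which p53 halts the cycle. Its signals were 11306 and 11567 in GFP-positive cells, 11316 and 10837 in GFP-negative cells, and 6804 and 7761 in control cells. Treated and control arrays did not overlap, while the 2 treated groups did. Against control the log2 difference was 0.65 ± 0.20 in GFP-positive cells (0.73 and 0.57 within the numbers) and 0.61 ± 0.20 in GFP-negative cells (0.73 and 0.48). The limma adjusted p-values with the block were 0.0101 and 0.0211, and without it 0.443 and 0.707. A second Cdkn1a probe set gave 0.81 and 0.70.

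Gtse1 is a microtubule-binding protein of the late cell cycle that can move p53 out of the nucleus. It had 977.4 and 862.9 in GFP-positive cells, 778.2 and 813.4 in GFP-negative cells, and 451.9 and 421.2 in control cells. No 2 of the groups overlapped. Its log2 difference was 1.02 ± 0.24 in GFP-positive and 0.82 ± 0.24 in GFP-negative cells against control, with limma block adjusted p-values of 0.00763 and 0.0323. Without the block they were 0.279 and 0.609.

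Ckap2, a spindle-associated protein, had signals of 1766 and 3151 in GFP-positive cells, 2750 and 1678 in GFP-negative cells, and 1040 and 1185 in control cells. Every treated array was above the control arrays, but the order of the treated groups was opposite in the 2 replicate numbers. The log2 difference was 1.07 ± 0.34 in GFP-positive cells (0.75 and 1.39 within the numbers), with a limma adjusted p of 0.0427 with the block and 0.487 without. In GFP-negative cells it was 0.93 ± 0.34 (1.38 and 0.49), with 0.0982 with the block.

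Gadd45a, a stress-induced growth arrest protein that binds cell-cycle and repair factors, went the other way. Its signals were 915.2 and 482.9 in GFP-positive cells, 747.6 and 447.4 in GFP-negative cells, and 1253 and 893.9 in control cells. GFP-negative and control cells did not overlap, and 1 GFP-positive array lay just above the lower control array. In GFP-negative against control cells the log2 difference was -0.84 ± 0.39, with -0.72 and -0.95 within the numbers. The limma adjusted p was 0.0323 with the block, and Gadd45a did not pass without it. In GFP-positive cells the difference was -0.64 ± 0.39, with -0.44 and -0.85 within the numbers. There the limma adjusted p was 0.0678 with the block and 0.893 without.

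The remaining arrest genes were Btg2, an antiproliferative cofactor of mRNA deadenylation, Phlda3, which competes with Akt for membrane lipids, Sesn1, a sestrin that restrains growth signalling, and Zmat3, an RNA-binding zinc finger protein. None of them passed at its brightest probe set, and their log2 differences ranged from -0.28 to 0.25 in GFP-positive and from -0.08 to 0.45 in GFP-negative cells. The probe sets of Btg2 disagreed: the brightest gave 0.22 and 0.45, while the other gave 0.87 and 0.88, with limma block adjusted p-values of 0.0164 and 0.0219. Zmat3 had signals of 1880 and 1621 in GFP-positive cells, 2336 and 1948 in GFP-negative cells, and 2328 and 1948 in control cells, and so was lowest in GFP-positive cells without overlap.

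Among the apoptosis genes, Pmaip1 passed in both treated groups with the block and Perp in GFP-positive cells only, and neither passed without it. Pmaip1 encodes Noxa, which binds and neutralises anti-apoptotic Mcl1. Its signals were 3003 and 6792 in GFP-positive cells, 2861 and 4767 in GFP-negative cells, and 764.9 and 2360 in control cells. The arrays numbered 2 were higher in every group, and treated and control arrays did not overlap. The log2 difference was 1.72 ± 0.57 in GFP-positive cells (1.93 and 1.51 within the numbers) and 1.43 ± 0.57 in GFP-negative cells (1.86 and 1.01). Adjusted p-values in limma were 0.503 and 0.914, and 0.000313 and 0.00148 with the block.

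Perp is a membrane protein of cell junctions in epithelia that p53 induces during apoptosis. It was dim, with 164.1 and 191.0 in GFP-positive cells, 102.1 and 144.3 in GFP-negative cells, and 46.9 and 36.5 in control cells. The 3 groups did not overlap, and both control signals were below the limit of 67.71 that was set on the mean over all arrays. Perp was the 1 member that entered the test only through the treated arrays, and 7 of the 8 calls in GFP-positive cells were of other members. The log2 difference was 1.53 ± 0.49 in GFP-positive and 1.08 ± 0.49 in GFP-negative cells, with limma block adjusted p-values of 0.0492 and 0.206. Keratinocyte markers were counted because Perp is an epithelial gene: 4 of 7 measured were above the limit, and Krt14, Krt1 and Cdh1 were below it. Their summed signal was 1339 and 1021 in GFP-positive cells, 819.1 and 1013 in GFP-negative cells, and 901.2 and 526.0 in control cells. Without Sfn, which is also a p53 target, it was 800.3 and 685.7 in GFP-positive cells, 542.2 and 620.8 in GFP-negative cells, and 740.2 and 520.1 in control cells, and both treated groups overlapped control. The part of other cell types in the Perp difference was not tested.

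The other 9 apoptosis genes passed no test and had log2 differences of -0.06 to 0.74 in GFP-positive and 0.03 to 0.75 in GFP-negative cells. Of them Aen, an apoptosis-enhancing nuclease, had 2700 and 2979 in GFP-positive cells, 2110 and 3199 in GFP-negative cells, and 1689 and 2411 in control cells, and only GFP-positive cells did not overlap control. All 4 Aen probe sets had positive differences, of 0.48 to 0.78 in GFP-positive and 0.27 to 0.68 in GFP-negative cells. Eda2r, the X-linked ectodysplasin receptor, had 882.6 and 1051 in GFP-positive cells, 1028 and 829.6 in GFP-negative cells, and 757.5 and 590.9 in control cells. Both treated groups were above control without overlap, and the log2 differences were 0.51 ± 0.26 and 0.45 ± 0.26. The lowest array, control replicate 2, came from a mix of sexes, and the part of sex in the Eda2r differences was not tested. Bbc3 (Puma, a BH3-only protein), Fas (a death receptor) and Apaf1 (the apoptosome scaffold) overlapped between all groups, with differences of -0.06, -0.03 and -0.05 in GFP-positive cells. Tnfrsf10b, a TRAIL receptor, had 0.74 ± 0.51 in GFP-positive cells, but -0.32 within replicate 1 and 1.80 within replicate 2. Its other probe set gave 1.08, with 0.99 and 1.16 within the numbers and a limma adjusted p of 0.0805 with the block. Dram1, a lysosomal protein of autophagy, Ei24, a membrane protein of the endoplasmic reticulum, and Triap1, a small mitochondrial protein, lay between -0.02 and 0.36 in GFP-positive cells.

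**Figure D2:**
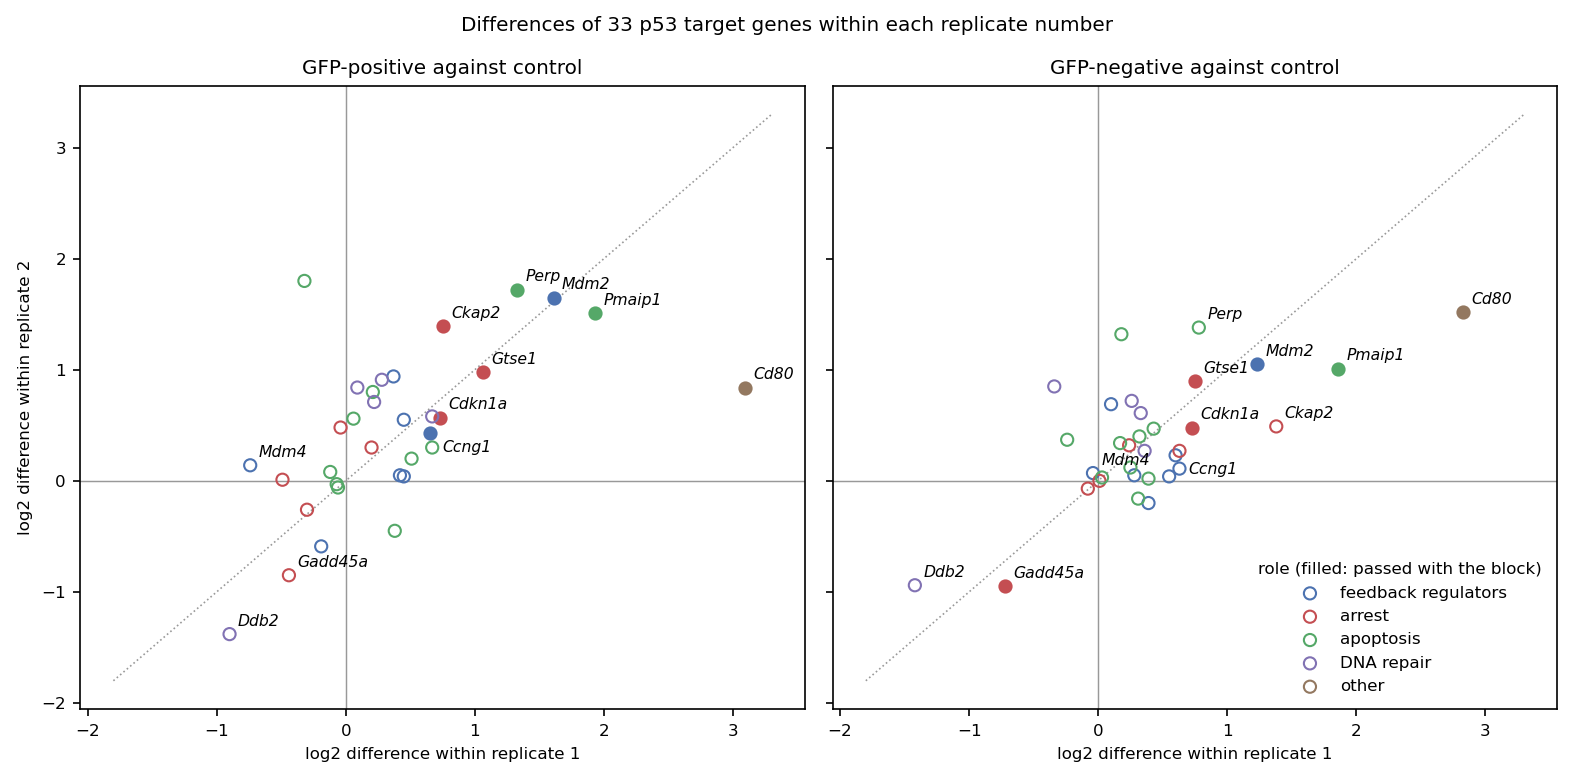
Log2 differences of 33 p53 target genes within replicate 1 (horizontal axis) and replicate 2 (vertical axis), for GFP-positive (left) and GFP-negative (right) against control. Colours give the role, filled points passed with the replicate number as a block, and the dotted line marks equal differences. Both differences are above 0 for 21 genes on the left and 24 on the right.

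The 5 DNA repair genes passed no test. Ddb2, which recognises ultraviolet lesions with its partner Ddb1, had 123.7 and 50.5 in GFP-positive cells, 77.0 and 79.8 in GFP-negative cells, and 257.8 and 180.6 in control cells. Both treated groups lay below control without overlap. The log2 difference was -1.14 ± 0.52 in GFP-positive and -1.18 ± 0.52 in GFP-negative cells, the lowest among the members, with limma block adjusted p-values of 0.125 and 0.157. A second Ddb2 probe set gave -0.38 and -0.72. Rrm2b, a ribonucleotide reductase subunit, had 0.62 ± 0.26 and 0.31 ± 0.26 with no overlap of any groups, and the block adjusted p in GFP-positive cells was 0.0716. Its other probe sets disagreed in sign, with 0.41, -0.18 and, below the brightness limit, -0.45 in GFP-positive cells. Ercc5, the nuclease XPG, had 0.59 ± 0.28 and 0.47 ± 0.28, also without overlap with control. Polk, a polymerase that copies past lesions, and Xpc, another damage sensor, overlapped control and had 0.47 and 0.46 in GFP-positive cells.

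Cd80, a ligand on antigen-presenting cells that costimulates T cells, had the highest log2 difference of all members. Its signals were 747.3 and 381.0 in GFP-positive cells, 619.3 and 625.6 in GFP-negative cells, and 61.0 and 198.9 in control cells. Treated and control arrays did not overlap, and the difference was higher within replicate 1. In GFP-positive cells the log2 difference was 1.96 ± 0.49 (3.09 and 0.84 within the numbers), a 3.9-fold change, and in GFP-negative cells 2.17 ± 0.49 (2.83 and 1.52), a 4.5-fold change. Limma adjusted p-values were 0.312 and 0.389, and 0.0167 and 0.014 with the block. Another pair of Cd80 probe sets gave 2.35 and 3.12 in GFP-positive cells, and a probe set below the brightness limit gave 0.03. Among 10 leukocyte markers measured, 6 were above the limit, and Ptprc, Itgam, Cd3e and Itgax were below it. The leukocyte sum was 1632 and 1563 in GFP-positive cells, 1903 and 1348 in GFP-negative cells, and 1621 and 1046 in control cells. In GFP-positive against control cells the 6 had log2 differences of -0.70 (Cd52) to 1.37 (Cd68), and none passed with the block. Of these, Cd68 and Csf1r were higher on every treated array than on both control arrays, and the others were not. The part of leukocytes in the Cd80 difference was not tested.

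**Figure D3:**
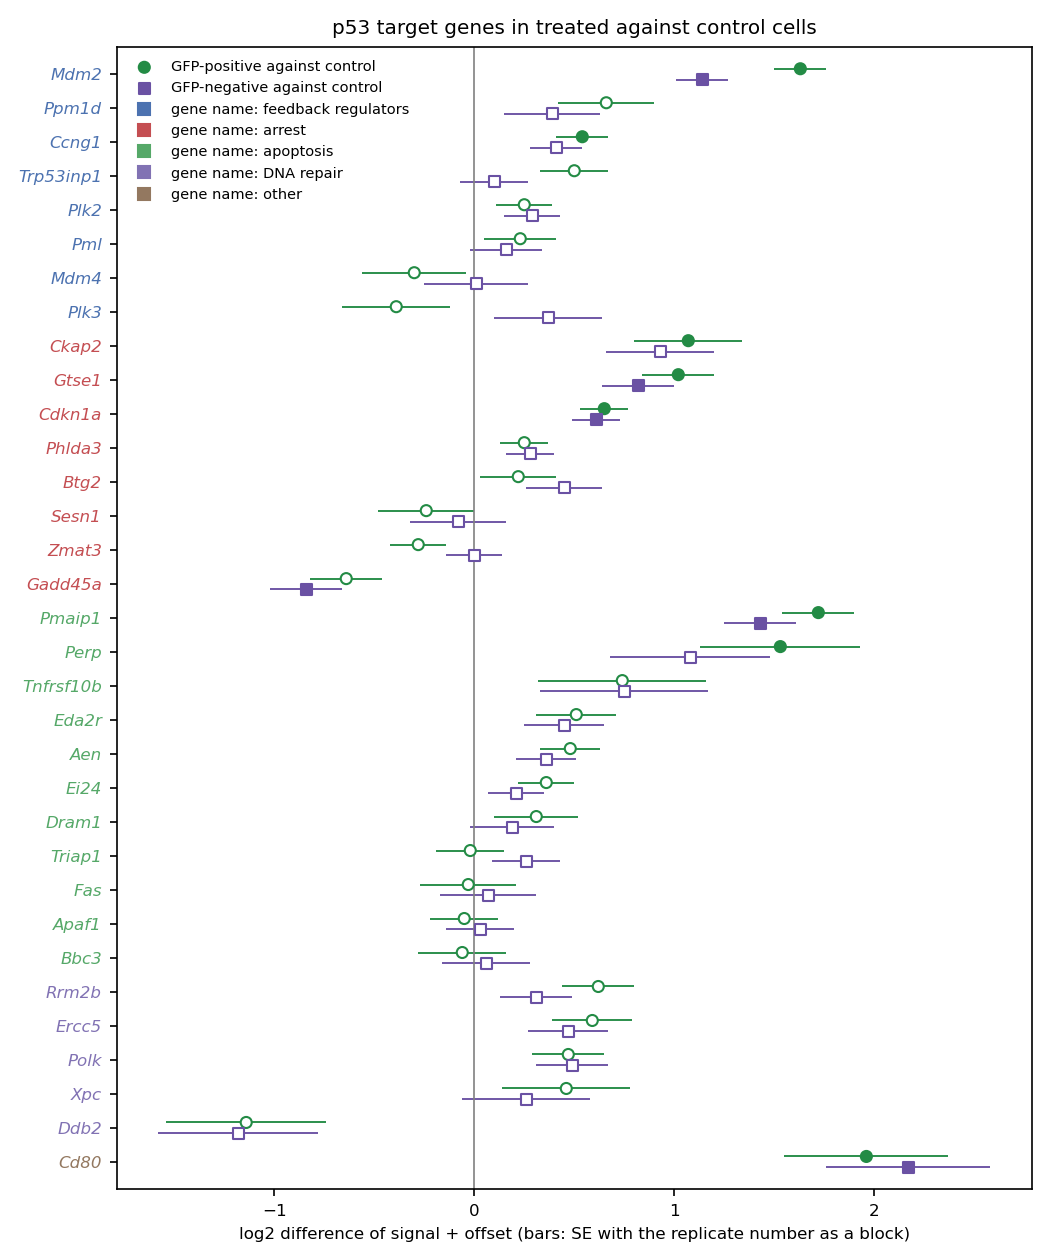
Log2 differences of all 33 measured p53 target genes, with circles for GFP-positive and squares for GFP-negative against control. Bars are SE from the fit with the replicate number as a block, filled symbols passed in that fit, and gene names are coloured by role. Mdm2, Pmaip1, Perp and Cd80 lie above 1 in both comparisons, and Ddb2 lies below -1 in both.

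Over the 33 measured genes the median log2 difference was 0.46 in GFP-positive against control cells (0.28 and 0.48 within the numbers) and 0.31 in GFP-negative against control cells (0.32 and 0.32). The median over all probe sets tested was 0.04 in both comparisons. The difference was above 0 for 23 members in GFP-positive cells (53.7% of probe sets) and for 30 in GFP-negative cells (54.3%). By role the GFP-positive medians were 0.37 for feedback regulators, 0.24 for arrest, 0.36 for apoptosis and 0.47 for DNA repair, and the GFP-negative medians were 0.33, 0.36, 0.26 and 0.31 in the same order. In GFP-positive cells 21 members were higher within both replicate numbers (34.6% of probe sets were) and 6 were lower within both (28.5%). In GFP-negative cells 24 were higher within both (33.8%) and 3 lower (26.8%). Treated arrays were above control without overlap for 16 members in GFP-positive cells (17.3% of probe sets, 19.1% of genes at their brightest). In GFP-negative cells the treated arrays were so for 15 members (15.1% and 16.3%). They were below control without overlap for 2 members in each comparison (14.9% and 13.5%). Those 2 were Ddb2 and Zmat3 in GFP-positive cells, and Ddb2 and Gadd45a in GFP-negative cells.

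Between GFP-positive and GFP-negative cells, both of them drug-treated, limma called 0 of 33 with and without the block. It called 0.0% of all probe sets as well, 0 members had an unadjusted p under 0.05, and 0.625% of probe sets did. The median log2 difference of GFP-positive against GFP-negative cells was 0.06, against 0.00 over all probe sets, and 19 members were above 0 (49.4% of probe sets). It ranged from -0.75 (Plk3) to 0.49 (Mdm2). The Mdm2 difference was 0.49 ± 0.25, with 0.38 and 0.60 within the numbers and a limma adjusted p of 0.725 with the block. At the second bright Mdm2 probe set it was 0.18, with -0.03 and 0.38 within the numbers, so the order of the treated groups did not hold there. Within both numbers 10 members had the higher signal in GFP-positive cells (26.6% of probe sets), and 6 had the lower one (27.4%). The groups did not overlap for 6 higher members (10.6%), which were Ccng1, Gtse1, Mdm2, Perp, Ppm1d and Rrm2b, and for 2 lower ones (10.0%), Plk3 and Zmat3. The order GFP-positive, then GFP-negative, then control held within both replicate numbers for 8 members (7.43% of probe sets), namely those 6 with Ei24 and Pmaip1. The opposite order held for 0 members (6.19%). At the other Ppm1d probe set the difference of GFP-positive against GFP-negative cells was -0.07, with -0.48 and 0.33 within the numbers. Other Rrm2b probe sets gave 0.14, -0.22 and -0.38, and other Ccng1 probe sets gave 0.39 and 0.25.

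Other genes of the pathway were read from 3 lists. Of 28 further p53 targets 22 were tested, and with the block 5 rose and 2 fell in GFP-positive cells (3.15% and 3.06% of all probe sets did), and 3 rose and 1 fell in GFP-negative cells (1.9% and 1.68%). Without the block limma called 0 of the 22 in either comparison. In each, 6 had an unadjusted p under 0.05 (7.04% and 5.07% of all probe sets did), among them Trp53inp2, which was lower. The median log2 differences of the 22 were 0.43 and 0.47. Cgref1, a secreted growth regulator, had 707.9 and 955.9 in GFP-positive cells, 659.2 and 645.0 in GFP-negative cells, and 347.2 and 317.9 in control cells, with log2 differences of 1.23 and 0.91 and limma block adjusted p-values of 0.00563 and 0.0368. Ptp4a3, a phosphatase, had a difference of 0.91 in GFP-positive cells and a block adjusted p of 0.0129. Sfn, the 14-3-3 protein that holds cells before mitosis and is also on the keratinocyte list, had 538.8 and 335.4 in GFP-positive cells, 276.9 and 391.8 in GFP-negative cells, and 161.0 and 5.9 in control cells. Its block adjusted p-values in limma were 0.0175 and 0.0492. Trp53inp2, an autophagy protein, fell in GFP-positive cells by the same test, with a difference of -0.71 and an adjusted p of 0.0362. The other called genes of this list were Trp53i11 and Dyrk3 upwards and Igfbp3 downwards. Igfbp3 had the largest difference of the list in GFP-positive cells, -2.57, and -2.09 in GFP-negative cells. Its limma adjusted p-values with the block were 0.00225 and 0.0107, and in GFP-positive cells 0.781 without. Igfbp3 signals were 225.8 and 24.7 in GFP-positive, 317.6 and 48.4 in GFP-negative, and 2452 and 169.8 in control cells, so all groups overlapped.

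Of 25 upstream kinases and p53 cofactors 24 were tested, and the block fit called 1 of them lower in GFP-positive cells and no other, a share near that of all probe sets (3.06% lower). The median differences were 0.06 in GFP-positive and 0.02 in GFP-negative cells. The called gene was Cdkn2a, which encodes the Mdm2 inhibitor p19Arf and the kinase inhibitor p16. It had 456.0 and 339.4 in GFP-positive cells, 581.2 and 811.8 in GFP-negative cells, and 796.6 and 1285 in control cells, with a log2 difference of -1.30 ± 0.33 in GFP-positive cells and a limma adjusted p of 0.0113 with the block and 0.315 without. Its difference in GFP-negative cells was -0.54 ± 0.33, with a block adjusted p of 0.318. Trp53bp2, Sirt1 and Trp53bp1 had 0.69, 0.66 and 0.45 in GFP-positive cells and did not pass. Of 16 cell-cycle genes that p53 is known to lower through Cdkn1a and the DREAM repressor complex, 15 were tested, and the block fit called 1 of them, a share near the 6.21% of all probe sets called. The mitotic kinase Aurka rose in GFP-positive cells, with 1391 and 1657 in GFP-positive cells, 1250 and 1452 in GFP-negative cells, and 966.0 and 970.6 in control cells (log2 difference 0.63, limma adjusted p = 0.0392 with the block and 0.562 without). The median differences of this list were 0.31 in GFP-positive and 0.22 in GFP-negative cells.

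**Figure D4:**
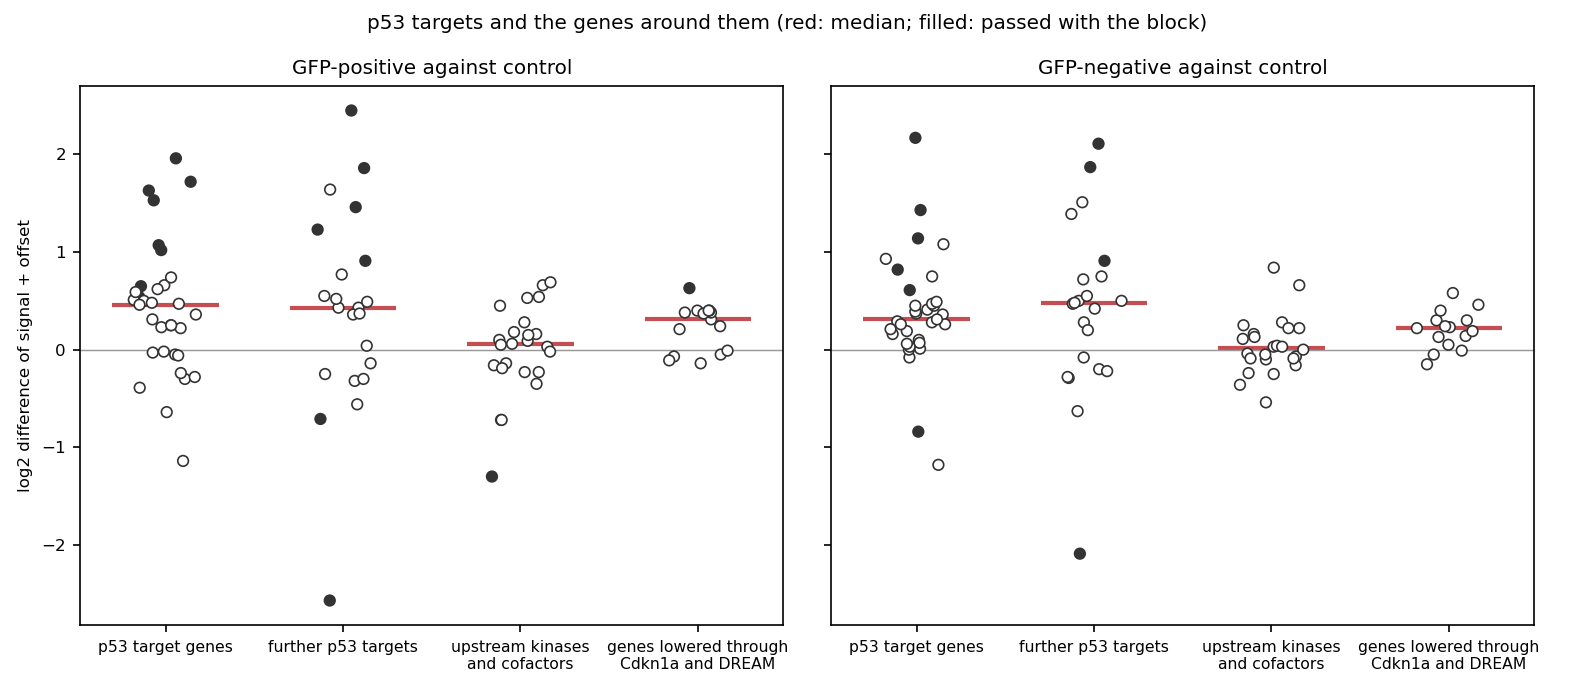
Log2 differences of the 33 p53 target genes and of 3 lists around them, for GFP-positive (left) and GFP-negative (right) against control. Each point is 1 gene, filled where it passed with the replicate number as a block, and red bars are medians. The medians of the target genes and the further targets lie between 0.31 and 0.47. Those of the upstream genes lie at 0.06 and 0.02, and those of the genes lowered through Cdkn1a at 0.31 and 0.22.

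The calls with the block rested on few arrays. When each of the 6 arrays was left out in turn, Mdm2 and Pmaip1 passed every time in GFP-positive against control cells, and Cd80, Mdm2 and Pmaip1 did in GFP-negative against control cells. Without GFP-positive replicate 1 the members called in GFP-positive cells were Ckap2, Mdm2 and Pmaip1, and without GFP-positive replicate 2 they were Cd80, Mdm2 and Pmaip1, so that 3 remained of 8. Without GFP-negative replicate 1 the members called in GFP-negative cells were Cd80, Mdm2 and Pmaip1, 3 of 6, and without GFP-negative replicate 2 the same 3 and Ckap2. Perp was lost in GFP-positive cells without control replicate 2 or GFP-negative replicate 2, and Ccng1 without control replicate 1.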

How the data were processed

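Total RNA of 6 samples was hybridised to Affymetrix mouse arrays. The authors deposited a linear signal intensity for each probe set, computed with MAS5 per the submitters' processing notes (version: not given in the sources used here), and no detection calls were used. Of 45101 probe sets, 64 controls were left out, and the other 45037 comprised 34945 with a single gene symbol, 932 with several and 9160 unnamed in the platform annotation. Signals were multiplied so that the 2% trimmed mean of every array was 500. Before log2, 30.64 was added to each signal (the arrays' median 25th percentile), so log2 differences understate changes of dim genes. Probe sets whose mean over the arrays reached the 40th percentile (67.71) were tested, 27022 probe sets covering 13223 genes.

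Groups were taken per the labels. Tests were two-sided in R 4.3.3 with limma 3.58.1 (lmFit, eBayes with a trend, 3 residual degrees of freedom, Benjamini-Hochberg over all 27022 probe sets, calls at an adjusted p under 0.05), with all 6 arrays in 1 model. The replicate number as a block left 2 residual degrees of freedom. It is printed beside the results since deviations of same-numbered arrays correlated (r = 0.513 for GFP-negative with control, 0.506 for GFP-positive with control and 0.556 for GFP-positive with GFP-negative). The number of arrays limits the precision. Both fits were also run on simulated data. The simulated spread was taken from the fit with the block and the trend, so that run cannot show whether this spread is right.

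The members and the 3 further lists were chosen with earlier results of these data known. Signals of each array were to be given for Trp53, Mdm2, Mdm4, Cdkn1a, members called with or without the block, and the member of each role with the largest difference. Trp53 was not analysed here. Up to 4 genes of smallest p were to be named of each list. Genes named beyond these were chosen after their values were seen. Fold changes are powers of 2 of the log2 differences. Alternatives covered the normalization (quantile, median centring), the offset, filter and threshold, no trend, the block, only the groups compared, other choices among probe sets and leaving out each array. The block with each array left out was added after seeing the data. Promoters came from RefSeq tables, in which 28 of the 37 genes had an entry.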

Additional observations from a re-analysis of the deposited data

How the results depend on the processing

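With the replicate number as a block, which pairs the same-numbered arrays, the count of members called was 8 in GFP-positive and 6 in GFP-negative against control cells, against 0 and 0 without it. With the block and quantile normalization the counts were 6 (Ckap2 and Perp lost) and 7 (Ccng1 gained), and with the block and 1 array left out 3 to 8 and 3 to 7 (5 without control replicate 2). Without the block, quantile normalization and a threshold of 0.10 on the adjusted p gave 1 call each in GFP-positive cells, and leaving out 1 array gave 0 throughout. GFP-positive against GFP-negative cells had 0 calls in every setting run.

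The median log2 difference in GFP-positive cells, 0.46, was 0.31 with the mean of a gene's probe sets and 0.24 to 0.46 with 1 array left out, lowest without control replicate 2. It was 0.38 with quantile normalization, with or without the block, and 0.42 with median centring. The median was 0.48 with a smaller offset and 0.35 with 4 times the offset. In GFP-negative cells it was 0.31 with quantile normalization, with or without the block, 0.26 with median centring, 0.33 with a smaller offset and 0.27 with 4 times the offset, 0.33 without probe sets whose names end in _x_at or _s_at (not specific to 1 transcript), 0.26 with the mean of probe sets and 0.24 to 0.40 with 1 array left out. The median of GFP-positive against GFP-negative cells, 0.06, was 0.12 without those probe sets, 0.10 with the mean of probe sets and 0.00 to 0.16 with 1 array left out.

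Mdm4 changed sign most often. In GFP-positive against control cells it was 0.21 without those probe sets and -0.93 to 0.32 with 1 array left out. In GFP-negative against control cells it was -0.02 with quantile normalization, with or without the block, -0.04 with median centring, -0.21 without those probe sets and -0.61 to 0.64 with 1 array left out. In GFP-positive against GFP-negative cells it was 0.42 and -0.89 to 0.25. That comparison also changed sign with 1 array left out for Gadd45a (-0.25 to 0.63), Ckap2 (-0.28 to 0.55), Pmaip1 (-0.30 to 0.87), Cd80 (-0.67 to 0.25) and Ddb2 (-0.43 to 0.50). The cause was not tested. With 2 arrays a group the number of arrays limits the precision.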
